A study of Mus musculus with 10 samples.

Results

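The ADAMTS genes encode secreted zinc proteases that cut proteins of the extracellular matrix. Described here are 10 of them, Adamts1, Adamts2, Adamts4, Adamts5, Adamts8, Adamts9, Adamts10, Adamts12, Adamts15 and Adamts20, out of the 19 catalytic ADAMTS genes of the mouse and of 56748 genes in the count tables. These 10 genes were chosen from earlier results of the same counts, so the difference between training and sedentary hearts in them is given as a description. An FDR threshold is used on them only for counts beside those of all genes, from which nothing is read. RNA was sequenced from whole hearts, ventricles with both atria, of wild-type male C57BL/6 mice that were 8 weeks old when bought. The training group was 5 mice that had completed 8 weeks of forced treadmill running, on 5 days per week for 120 min at 15 m/min, and 5 sedentary mice of the same age did not run. Each heart gave 1 library, so n = 5 hearts in each group throughout. Training and sedentary hearts are numbered 1 to 5 as their mice were.

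An ADAMTS protease is made as an inactive precursor, cut by proprotein convertases such as furin, and released into the matrix or held at the cell surface. The family members differ in what they cut. Adamts1, Adamts4, Adamts5, Adamts8, Adamts9, Adamts15 and Adamts20 belong to the proteases of versican, aggrecan and related proteoglycans, Adamts2 removes the amino-terminal propeptide of fibrillar procollagens, Adamts10 binds fibrillin microfibrils, and Adamts12 cuts cartilage oligomeric matrix protein. In the heart, cleavage of versican is best known from the development of the valves and the chamber wall. TIMP proteins, above all Timp3, inhibit several members, and the receptor Lrp1 takes several up from the cell surface.

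The part of the protein that binds the catalytic zinc is shown first, because all 10 genes share it. The 33 bases below are coding sequence of the GENCODE M39 transcripts on GRCm39, written 5′ to 3′ on the strand of the gene. Capitals mark the codons of the 3 histidines that hold the zinc and of the catalytic glutamate.
Adamts1: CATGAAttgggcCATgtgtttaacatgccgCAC
Adamts4: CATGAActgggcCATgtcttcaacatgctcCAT
Adamts5: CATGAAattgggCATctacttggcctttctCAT
Adamts8: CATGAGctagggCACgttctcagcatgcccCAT
Adamts15: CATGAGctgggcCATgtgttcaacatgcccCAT
Adamts2: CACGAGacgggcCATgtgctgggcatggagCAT
Adamts9: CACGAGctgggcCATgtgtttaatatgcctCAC
Adamts10: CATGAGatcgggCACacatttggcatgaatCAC
Adamts12: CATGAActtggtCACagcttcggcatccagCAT
Adamts20: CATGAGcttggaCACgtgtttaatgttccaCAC

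The stretch was identical in 12 of 33 bases in all 10 genes, and a pair of genes shared between 16 and 30 bases. In every gene it was split over 2 exons. The intron followed base 10 in the first 5 genes of the list and base 17 in the other 5. The eighth codon stood for asparagine in 5 genes (Adamts1, Adamts4, Adamts9, Adamts15 and Adamts20), for glycine in 4 (Adamts2, Adamts5, Adamts10 and Adamts12) and for serine in Adamts8. In Adamts9 the stretch lay at chr6:92882266-92885474 on the minus strand, in exons 8 and 9 with an intron of 3176 bases between them, and in Adamts4 at chr1:171080779-171081484 on the plus strand, in exons 3 and 4 with an intron of 673 bases. The genes with the intron after base 10 had 8 or 9 exons in the transcript used and encoded 833 to 968 amino acids, whereas the others had 22 to 40 exons and encoded 1104 to 1931. Over the whole translated coding sequence, pairs of members were identical at 32.6% to 55.5% of aligned positions, with a median of 40.0%. Adamts9 and Adamts20 were the most alike, at 55.5%, followed by Adamts1 and Adamts15 at 53.2%.

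Levels are given below as CPM, the count of a gene scaled to a fixed library size, on the strand that the library kit reads, and as TPM, which also divides by transcript length and therefore allows genes to be compared with each other. Libraries held between 29461697 and 35945417 counts on genes in the training group and between 35196993 and 39431030 in the sedentary group. The filter on low counts left 15454 genes for the test, with all 10 members among them. A difference was called at an FDR below 0.1 in edgeR. By that threshold 1084 genes (7.01%) were called, 659 lower (4.26%) and 425 higher (2.75%) after training. In 782 genes (5.06%) the CPM of the groups did not overlap. In these bulk samples, fewer cells of a type and less RNA per cell cannot be told apart.

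Per transcript length, Adamts1 was the most abundant of the 10, at 14.5 ± 3.33 TPM in the training and 17.0 ± 4.10 TPM in the sedentary hearts (SD, n = 5). Adamts10 followed with 10.7 ± 0.968 and 9.48 ± 1.61 TPM. Adamts2 was at 6.79 ± 0.986 and 6.40 ± 1.14 TPM, and Adamts9 at 4.46 ± 0.451 and 6.58 ± 0.358 TPM. A middle group was formed by Adamts5 (3.46 and 3.73 TPM), Adamts15 (2.71 and 3.15 TPM) and Adamts8 (2.79 and 2.77 TPM). The 3 scarce members were Adamts12 (0.430 and 0.434 TPM), Adamts4 (0.212 and 0.390 TPM) and Adamts20 (0.128 and 0.114 TPM). Ordered by the mean over all 10 hearts, neighbours overlapped in TPM at every step except from Adamts8 to Adamts12, where all hearts were separate. Within single hearts the order was steadier. Adamts10 was above Adamts2, and Adamts9 above Adamts5, in 10 of 10 hearts, while Adamts1 was above Adamts10 in 8 and Adamts2 above Adamts9 in 7.

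**Figure D1:**
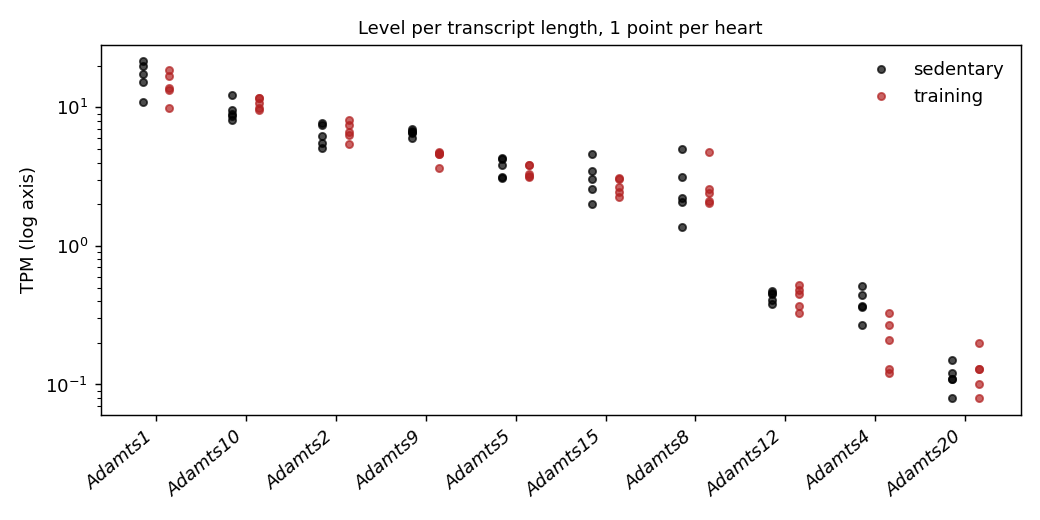
Level of the 10 ADAMTS genes in TPM on a log axis, 1 point per heart, sedentary in black and training in red, genes ordered by their mean over the 10 hearts. The 7 genes on the left lie between 1.37 and 21.5 TPM and the 3 on the right between 0.08 and 0.52 TPM, with a gap between Adamts8 and Adamts12.

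Among the proteoglycan-cutting members, Adamts9 separated the groups. Adamts9 (ENSMUSG00000030022, chromosome 6 of GRCm39, 92749680 to 92920520) encodes a protease of versican that is also needed in early development. In training hearts 1 to 5 it was at 27.9, 32.5, 30.4, 31.5 and 31.2 CPM, and in sedentary hearts 1 to 5 at 42.2, 51.9, 45.9, 49.5 and 49.6 CPM. The highest training heart lay below the lowest sedentary heart, and Adamts9 was the 1 member of the 10 for which that was so, beside 5.06% of all genes. The means were 30.7 ± 1.77 and 47.8 ± 3.80 CPM (SD, n = 5), a log2 fold change of −0.64 (SE 0.060) or 35.7% less after training. It was also the member that varied least within the training group, with a coefficient of variation of 5.75%, against 7.94% in the sedentary group. Of the summed TPM of the 10 genes, Adamts9 made up 9.12% to 10.2% in the training and 11.9% to 14.9% in the sedentary hearts.

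Adamts4 (ENSMUSG00000006403, chromosome 1, 171077986 to 171089841), an aggrecanase first known from cartilage, was scarce in these hearts. Training hearts 1 to 5 held 0.453, 1.29, 1.10, 0.529 and 0.763 CPM, and sedentary hearts 1 to 5 held 2.06, 1.61, 1.57, 1.28 and 1.95 CPM. Only training heart 2 reached into the sedentary range, just above sedentary heart 4. The means were 0.826 ± 0.360 and 1.69 ± 0.313 CPM (SD, n = 5), a log2 fold change of −1.03 (SE 0.25). These values rest on 16 to 83 counts per heart.

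Adamts9 and Adamts4 were the 2 of 10 members called lower, and no member was called higher, beside the 4.26% and 2.75% of all genes. Since the members were chosen from this contrast, that count carries no weight. The log2 fold change was below 0 in 7 members and above 0 in 3, with a median of −0.15. Over all tested genes the median was 0.00026, and 49.9% of genes were below 0. The members' summed CPM ranged from 200.2 to 242.6 in the training and from 249.0 to 277.4 in the sedentary hearts. On the TPM scale the sums overlapped, with 46.2 ± 5.47 in the training and 50.0 ± 2.45 in the sedentary hearts (SD, n = 5).

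**Figure D2:**
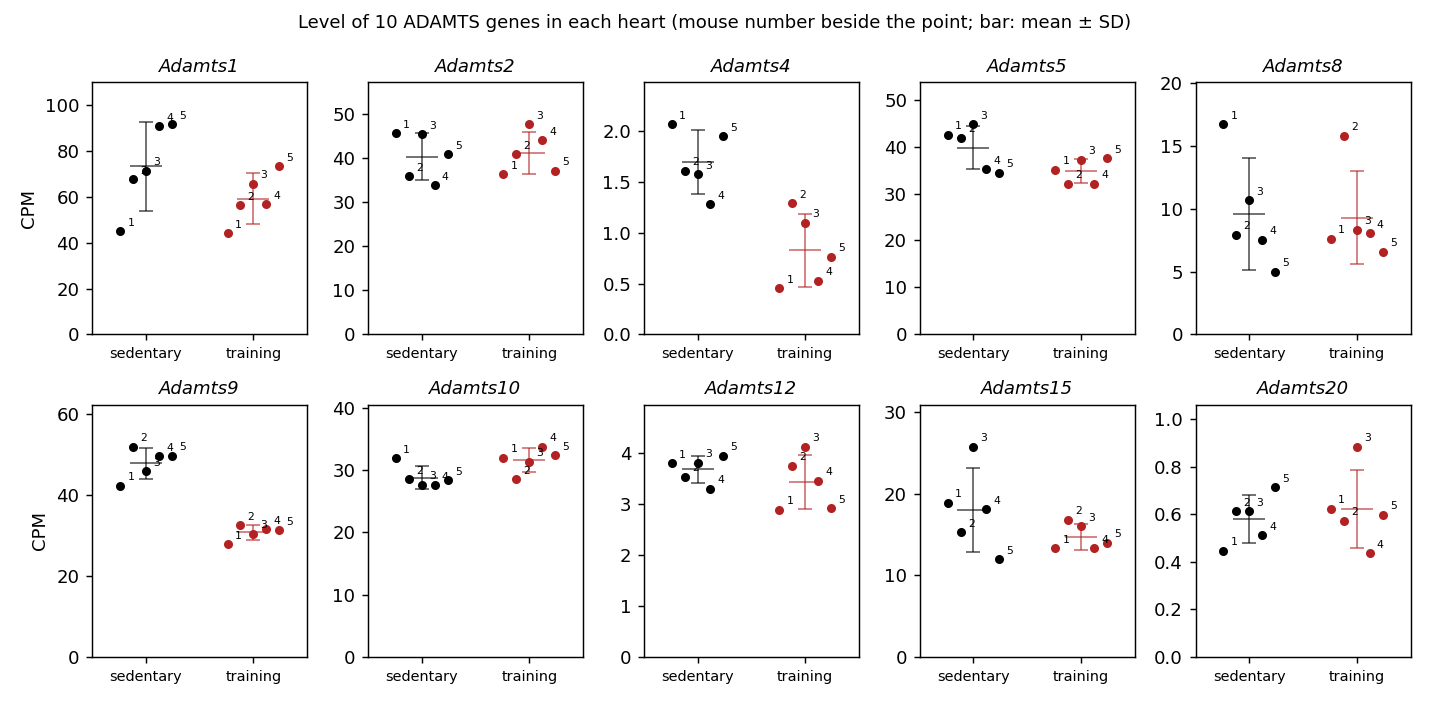
Level of each of the 10 ADAMTS genes in CPM (vertical axis from 0, own scale per gene), 1 point per heart with its mouse number, bars showing mean ± SD of 5 hearts. Adamts9 is the gene whose groups do not overlap, at 27.9 to 32.5 CPM in the training and 42.2 to 51.9 CPM in the sedentary hearts, and in Adamts8 training heart 2 and sedentary heart 1 stand above the rest.

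Adamts1 (ENSMUSG00000022893, chromosome 16, 85590579 to 85600009), a versican protease that responds to inflammation and growth signals, varied widely among hearts. It was at 44.1, 56.2, 65.6, 56.9 and 73.2 CPM in training hearts 1 to 5 and at 44.9, 67.7, 71.4, 90.6 and 91.5 CPM in sedentary hearts 1 to 5. The groups overlapped, since sedentary heart 1 was almost as low as the lowest training heart. The means were 59.2 ± 10.9 and 73.2 ± 19.2 CPM, a log2 fold change of −0.31 (SE 0.17). It moved to −0.44 without sedentary heart 1, to −0.21 without sedentary heart 5, to −0.11 with a score of atrial markers as a covariate, and to −0.09 and −0.12 with scores of endothelial and of fibroblast markers.

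Adamts5 (ENSMUSG00000022894, chromosome 16, 85653061 to 85698716), the main aggrecanase of mouse cartilage, lies 53.1 kb from Adamts1 on the same strand with no coding gene between them. Its levels were 35.1, 32.1, 37.2, 32.1 and 37.5 CPM in training hearts 1 to 5 and 42.5, 41.9, 44.7, 35.2 and 34.4 CPM in sedentary hearts 1 to 5. The sedentary group had 3 hearts that were above every training heart and the other 2 lay among them. The log2 fold change was −0.19 (SE 0.077), and −0.05 with the endothelial score as a covariate. The transcript of Adamts5 was the longest of the 10, with 10791 bases, of which 6440 were 3′ untranslated.

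Adamts8 and Adamts15, both proteoglycan proteases, lie 19.9 kb apart on chromosome 9 on opposite strands, also with no coding gene between them. Adamts8 (ENSMUSG00000031994, 30853809 to 30875134) was at 7.61, 15.8, 8.33, 8.06 and 6.60 CPM in training hearts 1 to 5 and at 16.7, 7.94, 10.7, 7.54 and 4.99 CPM in sedentary hearts 1 to 5. One heart in each group, training heart 2 and sedentary heart 1, was above the others. The log2 fold change was −0.05 (SE 0.29), and it was −0.33 without training heart 2 and 0.26 without sedentary heart 1. Adamts15 (ENSMUSG00000033453, 30810451 to 30833863) was at 13.3, 16.8, 16.0, 13.3 and 14.0 CPM in training hearts 1 to 5 and at 18.9, 15.3, 25.7, 18.1 and 11.9 CPM in sedentary hearts 1 to 5. The sedentary hearts spread over a range that held all training hearts, and the log2 fold change was −0.29 (SE 0.16). It was −0.12 without sedentary heart 3, −0.13 with the endothelial score, −0.46 with the fibroblast score and −0.52 with the atrial score. Adamts20 (ENSMUSG00000022449, chromosome 15, 94166170 to 94363299), the closest relative of Adamts9 and known from pigment cell development, was near the limit of detection with 14 to 33 counts per heart. It ranged from 0.436 to 0.883 CPM after training and from 0.447 to 0.712 CPM in sedentary mice, with a log2 fold change of 0.12 (SE 0.21). Whether its log2 fold change differed from that of Adamts9 was not tested.

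The members that act on collagen, microfibrils and cartilage oligomeric matrix protein overlapped between the groups. So did every proteoglycan-cutting member except Adamts9, beside 5.06% of all genes without overlap. Adamts2 (ENSMUSG00000036545, chromosome 11, 50492787 to 50698400), the procollagen protease, was at 36.3, 40.9, 47.6, 44.0 and 37.1 CPM in training hearts 1 to 5 and at 45.7, 35.9, 45.4, 33.8 and 40.8 CPM in sedentary hearts 1 to 5. The ranges were nearly the same, and the log2 fold change was 0.03 (SE 0.093), with a sign that turned in some of the other fits. Adamts10 (ENSMUSG00000024299, chromosome 17, 33742987 to 33772758), the fibrillin-binding member, was at 32.0, 28.5, 31.3, 33.7 and 32.3 CPM in training hearts 1 to 5 and at 31.9, 28.5, 27.6, 27.5 and 28.4 CPM in sedentary hearts 1 to 5. All training hearts were above sedentary hearts 2 to 5, training heart 2 only narrowly, and sedentary heart 1 was above training hearts 2 and 3. The log2 fold change was 0.13 (SE 0.055). With 1 heart left out it lay between 0.11 and 0.17, with the atrial score it was 0.07, and with the endothelial or fibroblast score it was 0.09. Adamts12 (ENSMUSG00000047497, chromosome 15, 11064876 to 11349318) was at 2.89, 3.75, 4.12, 3.46 and 2.92 CPM in training hearts 1 to 5 and at 3.80, 3.53, 3.81, 3.30 and 3.95 CPM in sedentary hearts 1 to 5. All sedentary values lay within the training range, and the log2 fold change was −0.10 (SE 0.11).

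Sedentary heart 1 stood at the edge of its group for several members. It was the lowest sedentary heart for Adamts1, Adamts9 and Adamts20 and the highest for Adamts2, Adamts4, Adamts8 and Adamts10. Sedentary heart 5 was likewise the lowest for Adamts5, Adamts8 and Adamts15 and the highest for Adamts1, Adamts12 and Adamts20. For each gene some heart must be lowest and some highest. Leaving out 1 heart at a time gave log2 fold changes from −0.68 to −0.60 for Adamts9 and from −1.24 to −0.87 for Adamts4, as values of the same hearts that chose the genes. Calls over all genes also moved with the hearts used, to 1490 of 15561 without sedentary heart 1 and to 512 of 15582 without training heart 4.

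Members were also compared for variation together between hearts of the same group. The values come from the same hearts that chose the genes, so the p-values are given as a description. Log2 CPM was centred within each group, and all 45 pairs were compared over the 10 hearts with exact permutation within groups, two-sided. Spearman's rho used ranks over the 10 hearts, and its p-value used those ranks centred again within each group. For r without 2 hearts, those farthest from the median of the gene named first were left out. In 28 pairs the correlation was above 0, and 0 pairs passed after Benjamini-Hochberg adjustment over the 45 pairs, with 2 at an unadjusted p below 0.05. The strongest pair was Adamts2 and Adamts12, with Pearson's r = 0.80 (exact permutation p = 0.00549, adjusted p = 0.247) and Spearman's rho = 0.73 (exact permutation p = 0.0187, adjusted p = 0.70), and r = 0.71 without training heart 3 and sedentary heart 4. Adamts1 and Adamts9 had r = 0.71 (exact permutation p = 0.0424, adjusted p = 0.676) but rho = 0.33 (exact permutation p = 0.426, adjusted p = 0.70). That relation rested on training heart 1 and sedentary heart 1, without which r was −0.14. The chromosome 9 neighbours Adamts8 and Adamts15 had r = 0.68 (exact permutation p = 0.0651, adjusted p = 0.676) and rho = 0.72 (exact permutation p = 0.0419, adjusted p = 0.70), and r = 0.89 without training heart 2 and sedentary heart 1. The chromosome 16 neighbours Adamts1 and Adamts5 had r = −0.36 (exact permutation p = 0.403, adjusted p = 0.753) and rho = −0.32 (exact permutation p = 0.441, adjusted p = 0.70), and r = −0.28 without training heart 1 and sedentary heart 1.

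The genes whose centred pattern over the 10 hearts was most like that of a member were searched among 13117 genes for the 3 members of highest CPM. For Adamts1 these were Tanc1 (r = 0.98), Dab2ip (0.97) and Sgk1 (0.97), the last a kinase gene that responds to glucocorticoids. For Adamts2 they were Bgn (r = 0.96), the small proteoglycan biglycan, Col3a1 (0.96), a fibrillar collagen, and Shisa5 (0.95). For Adamts9 they were Ttc7b (r = 0.97), Myo5b (0.96) and Ints1 (0.95). As the best of many genes over few hearts, these values are descriptions.

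Other genes of the pathway were set beside the members. Their lists, in this paragraph and the next paragraphs, were also chosen with earlier results of these data known. Calls and adjusted p-values in them are therefore given as descriptions. Over all tested genes, 2.75% were called higher and 4.26% lower. Of the 9 other catalytic ADAMTS genes 6 were tested, and Adamts19 was called higher after training, from 2.79 to 3.66 CPM (log2 fold change 0.39, SE 0.12, adjusted p = 0.0969 by edgeR). Adamts7, the other protease of cartilage oligomeric matrix protein, was at 26.7 ± 4.03 and 29.6 ± 1.15 CPM (adjusted p = 0.355 by edgeR). Adamts13, Adamts16 and Adamts18 were below the filter, at 0.0311 CPM or less. Among 7 ADAMTS-like genes, which lack the protease domain, Adamtsl4 (log2 fold change 0.18, adjusted p = 0.0525 by edgeR) and Thsd4 (0.41, adjusted p = 0.0938 by edgeR), both tied to fibrillin microfibrils, were called higher. None of these 3 calls was kept with the atrial score or at an FDR below 0.05. Of the 10 fits that left out 1 heart, edgeR called Adamts19 in 3, Thsd4 in 3 and Adamtsl4 in 6.

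Substrates of the members came next. Of 9 tested substrates, 2 were called higher and none lower, with a median log2 fold change of 0.06. Over all tested genes 2.75% were called higher and 4.26% lower, and in 5.06% the groups did not overlap. Comp, cartilage oligomeric matrix protein, rose from 17.1 ± 2.68 to 25.8 ± 3.58 CPM without overlap of the groups (log2 fold change 0.60, SE 0.11, adjusted p = 0.0161 by edgeR). Acan, the aggrecan core protein that Adamts4 and Adamts5 cut, rose from 0.425 ± 0.0781 to 0.775 ± 0.186 CPM (log2 fold change 0.86, SE 0.22, adjusted p = 0.0505 by edgeR). With the atrial score neither was called, with log2 fold changes of 0.44 for Comp (adjusted p = 0.222 by edgeR) and 0.95 for Acan (adjusted p = 0.238 by edgeR). Comp was called in all 10 fits that left out 1 heart and Acan in 6, and DESeq2 gave no adjusted p for Acan. Vcan, versican, was at 34.8 ± 6.12 and 35.2 ± 4.97 CPM (log2 fold change −0.01, SE 0.11, adjusted p = 0.960 by edgeR). Of 9 tested genes of the hyaluronan matrix and of 9 of the procollagens and their processing, 0 were called by edgeR and 0 by DESeq2, with 1 gene in each list, Hapln3 and Pcolce2, at an unadjusted p below 0.05. Col1a1 and Col3a1, whose procollagens Adamts2 trims, had log2 fold changes of 0.09 and −0.0031. Of 10 microfibril genes Ltbp1 was called higher (0.23, adjusted p = 0.0629 by edgeR), but not with the atrial score (0.31, adjusted p = 0.155 by edgeR) and in 6 of 10 fits that left out 1 heart. Fbn1, the fibrillin that Adamts10 binds, had a log2 fold change of −0.24 (adjusted p = 0.208 by edgeR).

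Among 12 genes that inhibit, clear or activate the proteases, 2 were called, both lower, beside 4.26% of all genes called lower and 2.75% higher. Of the 12, 7 were above 0 and 5 below, with a median log2 fold change of 0.0075. DESeq2 called 3 of them. The groups did not overlap in 2 of the 12, Furin (lower) and Timp2 (higher), beside 5.06% of all tested genes. Timp4, a heart-rich inhibitor of metalloproteases, fell from 81.6 ± 7.60 to 57.6 ± 9.03 CPM (log2 fold change −0.50, SE 0.096, adjusted p = 0.0187 by edgeR), and with the atrial score it was at −0.40 (adjusted p = 0.222 by edgeR). Furin, the convertase that activates many ADAMTS precursors, fell from 142 ± 7.37 to 123 ± 7.93 CPM without overlap of the groups (log2 fold change −0.20, SE 0.051, adjusted p = 0.0482 by edgeR). With the atrial score it was at −0.28 (adjusted p = 0.0855 by edgeR). It was called in 8 of 10 fits that left out 1 heart, and not called when counts were scaled by library totals alone. Timp3, the main inhibitor of the family, was at 505 ± 53.3 and 447 ± 58.0 CPM (log2 fold change 0.18, adjusted p = 0.286 by edgeR), and Lrp1 was at 311 ± 35.7 and 312 ± 38.4 CPM (log2 fold change −0.01, adjusted p = 0.981 by edgeR).

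**Figure D3:**
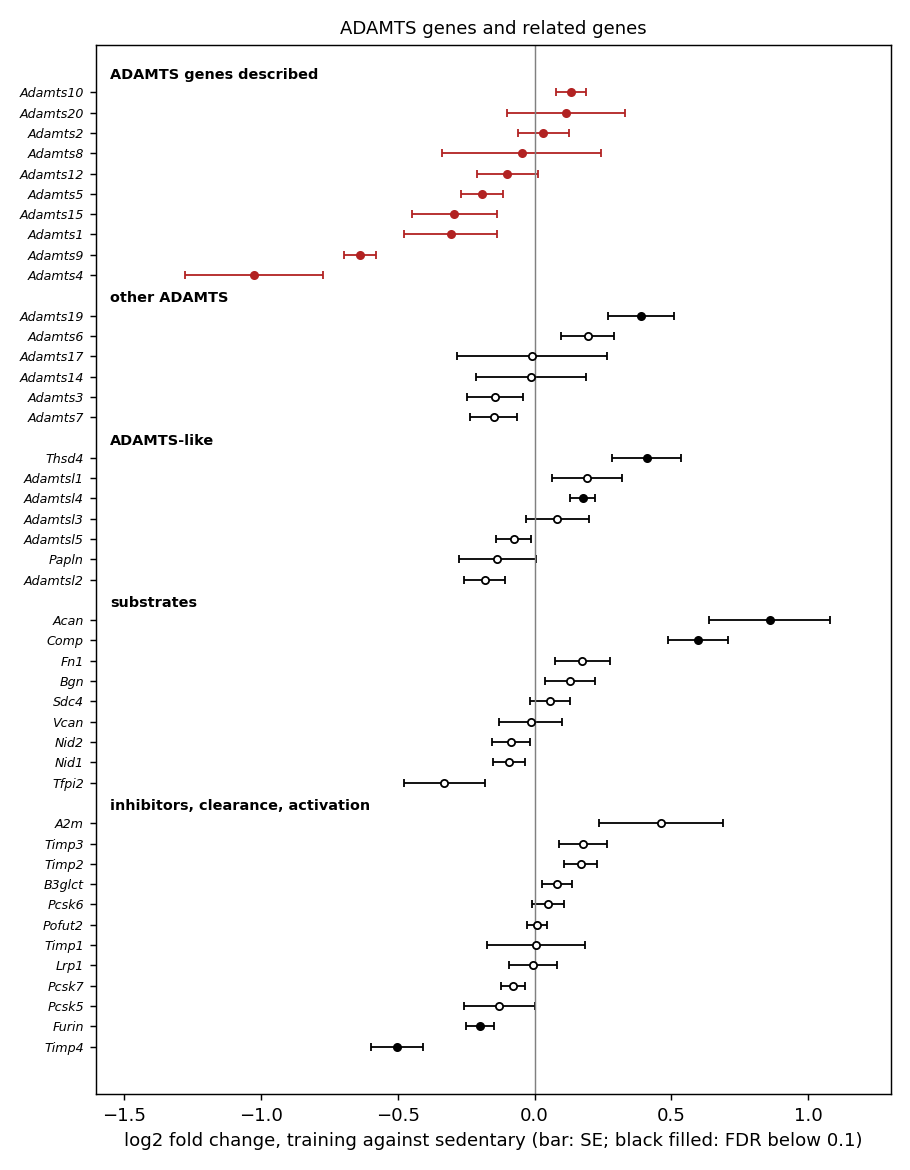
Log2 fold change after training, with SE (horizontal axis), for the 10 ADAMTS genes in red and for related genes in black, the latter filled where the FDR was below 0.1 in edgeR. Adamts4 at −1.03 and Adamts9 at −0.64 lie farthest to the left, and Acan at 0.86 and Comp at 0.60 stand on the other side.

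Single markers of several cell types were called as well, beside 4.26% of all tested genes called lower and 2.75% higher. In 5.06% of all tested genes the groups did not overlap. Summed CPM of 6 endothelial markers was 771 to 827 in the training and 849 to 895 in the sedentary hearts, with 5 of 6 below 0 and Tie1 called lower (log2 fold change −0.16). Of 6 atrial markers all were above 0 and 2 were called higher, Sln (0.75) and Dkk3 (0.73), with summed CPM of 5053 to 7617 against 2789 to 6837. Of 6 fibroblast markers all were above 0 and 2, Pdgfra and Lum, were called higher, with summed CPM of 942 to 1147 against 827 to 1004. Of 5 smooth muscle markers 4 were above 0 and 2 were called higher, Tagln (0.54, without overlap) and Cnn1 (0.75), with Acta2 at −0.07 and Mylk at 0.01. Of 6 pericyte markers 3 were below 0 and 3 above, with a median log2 fold change of −0.0029, and Rgs5 was called lower (−0.18). None was called among 6 cardiomyocyte markers (all below 0), 5 erythroid markers (all below 0) and 5 adipocyte markers (all above 0, with summed CPM of 19.8 to 165 against 17.3 to 134). Also without a call were 6 macrophage markers, 4 mesothelial markers (all above 0) and 4 Schwann cell markers (all above 0). Of 5 lymphocyte and 5 skeletal muscle markers 1 and 3 were tested, and none was called. Unadjusted p by edgeR was below 0.05 for 2 cardiomyocyte, 2 Schwann cell and 1 erythroid marker. The part of these cell types in the members' differences was not tested.

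With the atrial score as a covariate, the log2 fold change was −0.53 (SE 0.065) for Adamts9 and −1.01 (SE 0.32) for Adamts4. With the fibroblast score it was −0.54 (SE 0.072) for Adamts9 and −1.33 (SE 0.31) for Adamts4. Over all genes, those fits left 94 and 43 calls of 1084. The endothelial score did not overlap between the groups, so endothelial markers and training cannot be told apart in these hearts. With that score as a covariate the log2 fold change was −0.46 (SE 0.11) for Adamts9 and −0.20 (SE 0.50) for Adamts4, and 0 of all 15454 genes were called by edgeR, with 1202 at an unadjusted p below 0.05.

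**Figure D4:**
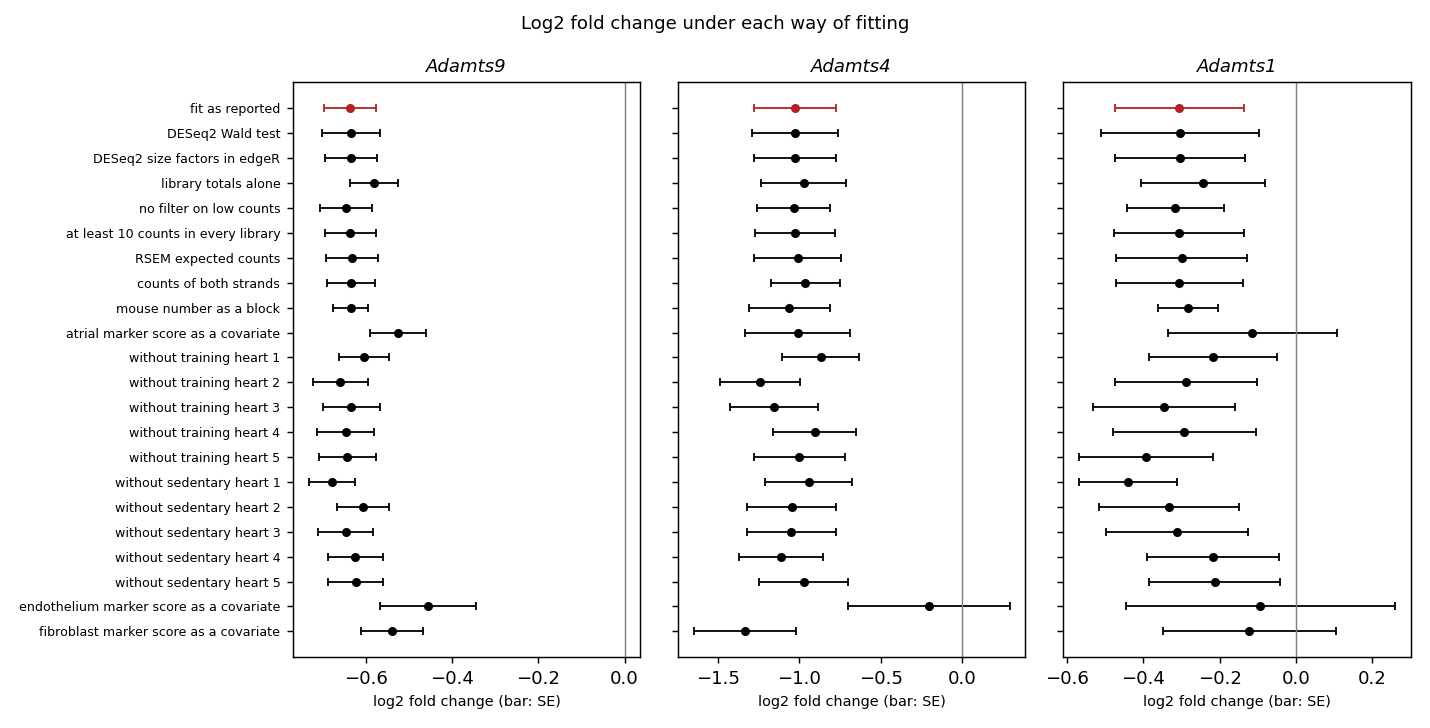
Log2 fold change with SE (horizontal axis, own scale per gene) of Adamts9, Adamts4 and Adamts1 under each way of fitting, with the reported fit in red. Adamts9 lies between −0.68 and −0.46 throughout, while Adamts4 moves to −0.20 with the endothelial score.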

How the data were processed

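RNA of 10 whole hearts, 5 training and 5 sedentary, was made into directional poly-A libraries and sequenced as single reads. The authors aligned the reads to GRCm39 with STAR 2.7.10a and deposited, for each heart, the raw count of reads with 1 mapping position on each gene, without a filter or normalization. They also deposited expected counts and TPM from RSEM 1.3.3, whose strand setting is not stated. Reads that match several genes alike are missing from the STAR counts, and multimapping reads made up 17.9% to 19.2% of reads. Counts of the reverse strand, 94.9% to 95.6% of the counts on both strands, were used. Lines that are no gene were left out, among them reads on no feature (4.15% to 4.89%).

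Groups came from the sample labels. In R 4.3.3, edgeR 4.0.16 was run after filterByExpr and TMM normalization with its quasi-likelihood test, and p-values were adjusted by Benjamini-Hochberg over all tested genes, with calls at an FDR below 0.1. CPM use TMM-corrected library sizes. Log2 CPM for scores and correlations used a prior count of 2. Identifiers were matched to symbols, positions and coding sequence of GENCODE M39. Within a group, pairs of libraries exceeded counting noise (chi-square per degree of freedom 6.02 to 27.8), so errors are between hearts.

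The members and the gene lists were chosen with earlier results of these data known. All 10 members are named, and in each related list the called genes and up to 4 of the other genes of highest CPM could be named. For patterns most like a member, genes of at least 1 CPM on average were searched. The test was tried on simulated data. Alternatives were DESeq2 1.42.0, its size factors in edgeR, library totals, a minimum of 10 counts in each heart, no filter at all, RSEM counts rounded to whole numbers, counts of both strands, the mouse number as a block, an atrial marker score as a covariate, an FDR below 0.05, and each heart left out. Endothelial and fibroblast scores as covariates were chosen after seeing the data.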

Additional observations from a re-analysis of the deposited data

Results flagged for a closer look

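Of 36 groups of 5 hearts, for 18 genes, 3 held a heart far from the others by Dixon's test, where chance gives about 1 in 20. Adamts8 was at 15.8 CPM in training heart 2, against 6.60 to 8.33 CPM in the other training hearts. Adamts10 was at 31.9 CPM in sedentary heart 1, against 27.5 to 28.5 CPM in the other sedentary hearts. Timp4 was at 68.3 CPM in sedentary heart 1, against 82.9 to 87.2 CPM in the other sedentary hearts.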

How the results depend on the processing

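The 10 members under 21 other fits gave 210 log2 fold changes, of which 189 kept their sign and side of the threshold, 5 lost a call, 4 gained one and 12 changed sign. No member that was called changed sign. As the members were chosen from this contrast, these counts are no sign of stability. Sign changes were in Adamts2 (−0.091 with the atrial score, −0.22 with the fibroblast score, and −0.027 to 0.082 with 1 heart left out), Adamts8 (0.25 with the endothelial score, −0.33 to 0.26 with 1 heart left out), Adamts12 (0.19 with the endothelial score) and Adamts20 (−0.065 with the fibroblast score, −0.05 to 0.22 with 1 heart left out). Changes of sign in leave-one-out fits of Adamts2 were −0.027, −0.0082 and −0.026, those of Adamts8 were 0.017, 0.050 and 0.26, and that of Adamts20 was −0.051. DESeq2 gave no adjusted p for Adamts20.

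All genes called numbered 1084. They were 94 with the atrial score, 505 at an FDR below 0.05, 0 with the endothelial and 43 with the fibroblast score, and 512 to 1490 with 1 heart left out. Members called were 1 with the atrial score, 0 with the endothelial score, 1 with the fibroblast score and 1 to 4 with 1 heart left out. The number of other ADAMTS genes called fell from 1 to 0 with no filter, with RSEM counts, with the mouse number as a block, with the atrial score and at an FDR below 0.05, and was 0 to 1 with 1 heart left out. ADAMTS-like genes called were 1 with RSEM counts, 0 with the atrial score, 0 at an FDR below 0.05 and 0 to 3 with 1 heart left out. Substrates called were 1 with DESeq2 (which gave no adjusted p for Acan), 0 with the atrial score, 1 at an FDR below 0.05 and 1 to 2 with 1 heart left out. Procollagen genes called were 1 with library totals and 0 to 1 with 1 heart left out, and microfibril genes 2 with library totals, 0 with the atrial score, 0 at an FDR below 0.05 and 0 to 2 with 1 heart left out. Of the genes that inhibit, clear or activate, 3 were called with DESeq2, 1 with the atrial score and 1 to 2 with 1 heart left out. The cause was not tested.

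The labels share mouse numbers between groups. The deviations of hearts with the same number correlated at −0.097, 0.16, 0.075, 0.024 and 0.16. Hearts with different numbers were not compared, so these values cannot show whether the numbers are pairs. The reported fit did not use them as pairs. With the mouse number as a block, Adamts1 was also called (log2 fold change −0.28), so 3 members were called, and 1137 genes in all. Adamts4 and Adamts20 rest on 14 to 83 counts per heart, and small differences in them were not detectable at this depth.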
